A study of Mus musculus with 30 samples.

Results

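The 59 genes described here form a stretch of mouse chromosome 2 that runs from the start of Blvra to the end of Plcb1 and surrounds the targeted gene Mertk (GRCm38, chr2:127070665-135475258). They are the genes of both deposited tables whose name equals 1 of 59 listed symbols, out of 55573 genes per table; Mertk itself and the neighbouring interleukin genes Il1a and Il1b were not on the list. Of these genes, 13 start before Mertk and 46 after it. RNA was sequenced from retinal pigment epithelium (RPE), the pigmented layer that feeds and cleans the photoreceptors, and from bone marrow-derived macrophages (BMDMs), macrophages grown in culture from bone marrow. The RPE came from mice at postnatal day 25 (6 libraries of B6, 6 of Mertk-/-V1, 3 of Mertk-/-V2 and 3 of Mertk-/-V3), and the BMDMs came from adult mice (3 libraries of each genotype). The libraries of a group are biological replicates, each from its own animal by the general statement in the methods of the study. The comparisons ask how transcript levels of the genes beside Mertk differ in a line made in 129P2 stem cells, against B6 and against lines made on B6 embryos.

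B6 are wild-type C57BL/6 mice, and all 4 genotypes are labelled with the strain C57BL/6J. Mertk-/-V1 mice (Mertk knockout version 1) lack exon 17, which encodes part of the kinase domain, and still carry the neomycin cassette at the locus; the allele was made in 129P2/OlaHsd embryonic stem cells and then crossed to C57BL/6J for many generations. Mertk-/-V2 mice (version 2) lack exon 18, removed in the germline from a floxed allele of C57BL/6NJ origin by a tamoxifen-driven Rosa26 Cre that was then bred out. Mertk-/-V3 mice (version 3) were made by CRISPR/Cas9 in C57BL/6NJ eggs and have exons 3 and 4 targeted. By the SNP analysis of the study, the genome of Mertk-/-V2 is mostly C57BL/6J with a smaller C57BL/6NJ share. That of Mertk-/-V3 holds a large share of each. In comparisons of these lines with B6, this background cannot be told apart from the Mertk allele. All 3 are global knockouts, each is a single line, and no group received a treatment.

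MERTK is a receptor tyrosine kinase with which macrophages and RPE cells take up dying cells and shed photoreceptor tips. When an allele made in the cells of 1 mouse strain is bred into another, the DNA beside it stays linked and is carried along until recombination removes it, so neighbouring genes can keep the sequence of the donor strain. The genes around Mertk have little in common in function. They include cell cycle genes, immune receptors and regulators of cell death, transporters, mitochondrial and metabolic enzymes, RNA processing factors, and a mixed group of signalling and adhesion genes.

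Libraries held 14137666 to 34124049 reads on genes in RPE and 16629659 to 25653814 in BMDMs. Values below are normalized counts, that is, reads divided by the size factor of the library, and differences are log2 fold changes of the normalized count plus 1 with their SE. Mertk was lower than in B6 in Mertk-/-V1 RPE (log2 fold change -1.46 ± 0.20, limma, Benjamini-Hochberg adjusted p = 0.00267) and in Mertk-/-V3 RPE (-2.01 ± 0.25, limma, adjusted p = 0.00222), and likewise in BMDMs (-1.61 and -1.94). In Mertk-/-V2 it was not lower in RPE (0.39, limma, adjusted p = 0.954) and was higher in BMDMs (0.43, limma, adjusted p = 0.00129). A count over the whole gene does not resolve the missing exon. The summed counts of 8 RPE markers were 184151 to 847997 in RPE and 1056 to 1346 in BMDMs, and those of 8 macrophage markers 5418 to 12568 in RPE and 248021 to 267131 in BMDMs. In BMDMs the RPE genes Rpe65, Lrat and Ttr, the rod gene Prph2 and the neuronal genes Stmn2 and Syt1 had 0 reads in all 12 libraries. In RPE the markers of other cells were present and uneven. The summed normalized counts of 5 neuronal markers ran from 2225 to 66108 and were highest in Mertk-/-V1 replicates 5 and 6 and Mertk-/-V3 replicate 1, and those of 5 surface epithelium markers ran from 24927 to 160546. In such bulk samples, fewer cells of a type and less RNA per cell cannot be told apart.

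The 2 tissues used the stretch differently. Per kilobase of exon, Mal, a raft protein of myelin and epithelia, stood highest in B6 RPE (8998 normalized counts per kilobase), before the prion protein gene Prnp (1422) and the splicing gene Snrpb (1199). Among B6 RPE libraries, Mal and the surface epithelium sum were both highest in replicate 1 (42895 and 107515.8). Both were lowest in replicate 6 (9828 and 24956.5), and the part of surface epithelium in the values of Mal was not tested. In B6 BMDMs the highest per kilobase was Sirpa (10750.1), the receptor through which macrophages read the CD47 signal, before Pcna, the sliding clamp of DNA polymerase (3806), and Snrpb (2412). Mal, Fbln7 and the integrin activator Fermt1 had 0 reads in all 12 BMDM libraries, which still allows 3 reads' worth in each, and the transglutaminase gene Tgm3, the membrane transporter gene Slc4a11 and the secretory granule gene Chgb stayed at 4.1 normalized counts or lower. Those 6 genes fell under the mean of 10 normalized counts required for testing in BMDMs, which left 53 genes, and Dusp2, a phosphatase of activated immune cells, fell under it in RPE (2.2 to 13.4), which left 58.

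In Mertk-/-V1 BMDMs, 12 of the 53 genes tested passed the threshold against B6, 8 higher and 4 lower. Higher were Bcl2l11, Slc20a1, Sirpa, Ptpra, Prnp, Slc23a2, Tmem230 and Plcb1, and lower were Bub1, Snrpb, Smox and Pcna. Across all 13420 genes tested in BMDMs, 7.07% passed (3.92% higher and 3.15% lower). The threshold was a Benjamini-Hochberg adjusted p under 0.05 in limma. Plcb1 alone also differed by the 2.38-fold or more that the study asks of a differentially expressed gene, as did 0.425% of all genes. The differences of the other 11 were between 1.13-fold and 1.51-fold. The median absolute log2 fold change was 0.14 over the 53 genes and 0.12 over all genes. Without B6 replicate 1 the count was 5 (243 among all genes in place of 949) and without B6 replicate 2 it was 7 (302).

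**Figure D1:**
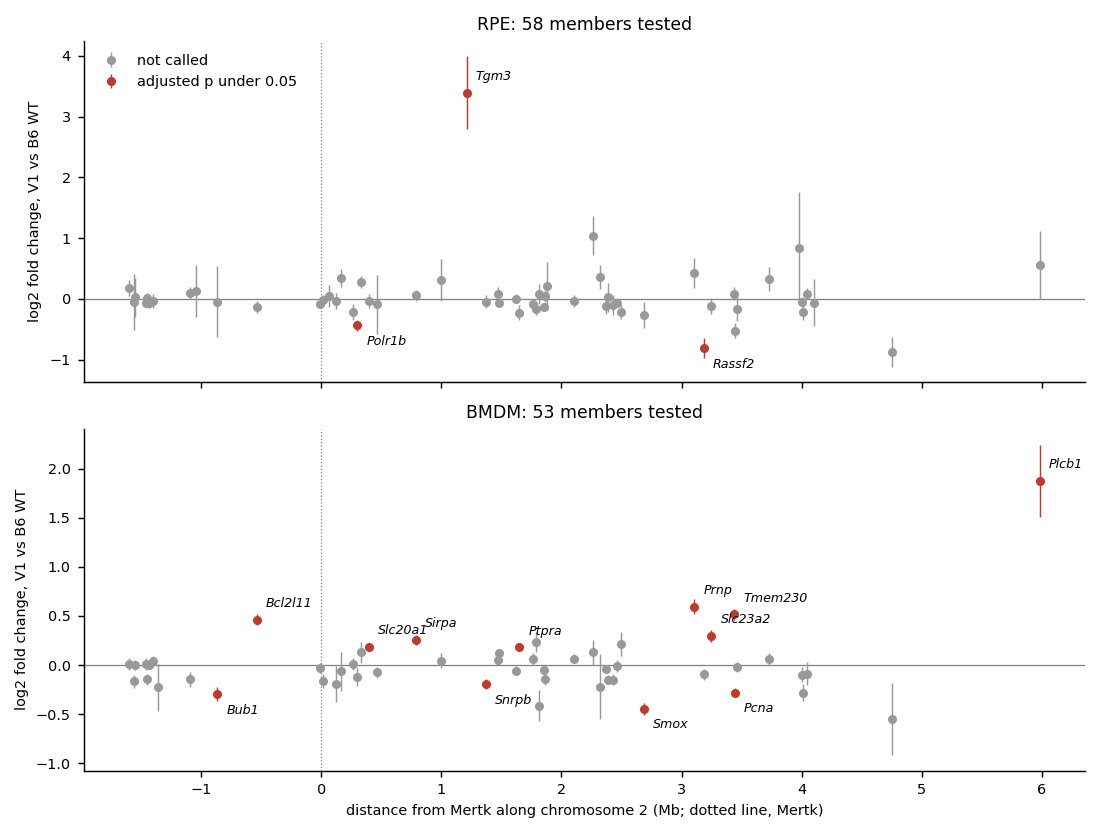
Log2 fold change of each gene in Mertk-/-V1 against B6 with its SE (vertical axis) by its distance from Mertk on chromosome 2 (horizontal axis), for 58 genes in RPE and 53 in BMDMs; coloured points passed an adjusted p under 0.05 in limma. Most points lie near 0, with Tgm3 far above it in RPE (3.40) and Plcb1, at the far end, in BMDMs (1.87).

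Set against the other knockout lines, taken as the average of Mertk-/-V2 and Mertk-/-V3, 7 of the 53 genes passed in BMDMs, 6 higher and 1 lower, beside 0.991% of all genes (0.663% higher and 0.328% lower). They were Bcl2l11, Slc20a1, Sirpa, Prnp, Tmem230, Plcb1 and Smox, each of which had also passed against B6; the Mertk-/-V1 libraries enter both comparisons. Plcb1 was again the only one past the 2.38-fold threshold, beside 0.194% of all genes. Without Mertk-/-V1 replicate 3 the count was 4 (74 among all genes in place of 133).

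**Figure D2:**
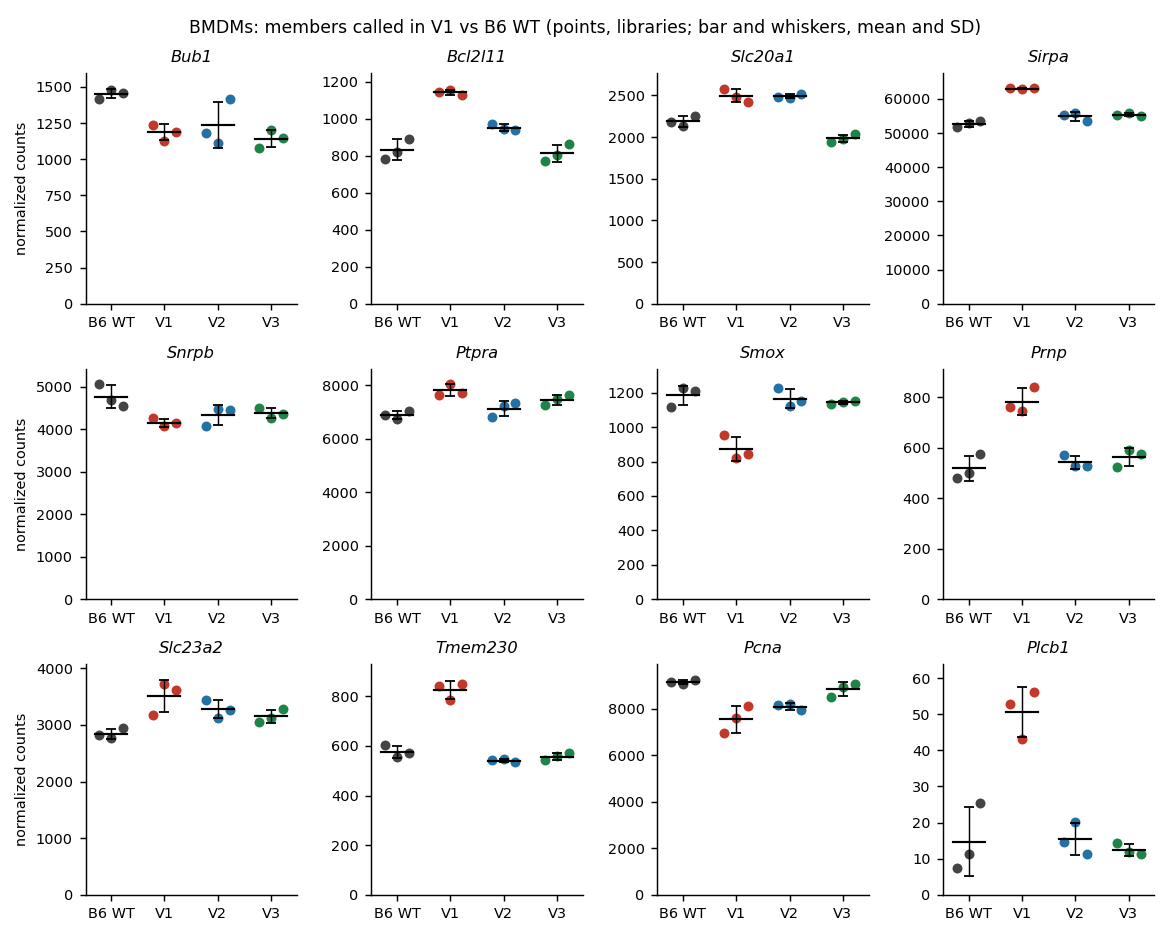
Normalized counts (vertical axes) of the 12 genes that passed in Mertk-/-V1 BMDMs against B6, 1 point per library and 3 libraries per genotype, with the mean and SD. In each panel the 3 Mertk-/-V1 libraries lie on 1 side of the 3 B6 libraries, while Slc20a1, Slc23a2, Bub1, Snrpb and Pcna overlap with Mertk-/-V2.

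Among the signalling genes, Plcb1, which encodes a phospholipase that acts downstream of G protein-coupled receptors, differed most. Its BMDM libraries held 7.40, 11.4 and 25.4 normalized counts in B6, 52.9, 43.0 and 56.2 in Mertk-/-V1, 14.6, 20.2 and 11.4 in Mertk-/-V2, and 14.2, 11.7 and 11.2 in Mertk-/-V3. The Mertk-/-V1 libraries stood above all 9 others. The log2 fold change was 1.87 ± 0.37 against B6 (3.67-fold, limma, adjusted p = 0.0104) and 1.82 ± 0.32 against the other knockouts (limma, adjusted p = 0.0100). These are low levels for a gene of this length (1.33 normalized counts per kilobase in B6). The first call was lost without B6 replicate 1 and the second without Mertk-/-V1 replicate 1 or 3, and the log2 fold change without a library stayed between 1.50 and 2.33.

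Prnp, the prion protein gene, held 480.1, 500.5 and 575 normalized counts in the B6 BMDM libraries, 759.8, 744 and 842 in Mertk-/-V1, 570.1, 528 and 526 in Mertk-/-V2, and 525, 592 and 574 in Mertk-/-V3. No Mertk-/-V1 library overlapped with another genotype, and the other 3 genotypes overlapped with one another. It rose by 0.59 ± 0.08 on the log2 scale against B6 (1.51-fold, limma, adjusted p = 0.000712) and by 0.50 ± 0.07 against the other knockouts (limma, adjusted p = 0.00128). Ptpra, a receptor tyrosine phosphatase that activates Src family kinases, rose less. It held 6738 to 7035 normalized counts in B6 and 7638 to 8061 in Mertk-/-V1, with 6817 to 7337 in Mertk-/-V2 and 7256 to 7637 in Mertk-/-V3 (0.18 ± 0.04 against B6, limma, adjusted p = 0.0200). Against the other knockouts Ptpra did not pass (0.10, limma, adjusted p = 0.306), and its call against B6 was lost without B6 replicate 1 or 2 or without Mertk-/-V1 replicate 2 or 3.

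The other 8 signalling and adhesion genes tested in BMDMs did not pass against B6. They were Itpripl1, the tubulin tyrosine ligase gene Ttl, the kinase gene Stk35, the UFM1 pathway gene Ddrgk1, Atrn, the chaperone gene Hspa12b, the RAS effector gene Rassf2, and Bmp2, a secreted ligand of the TGF-beta family that had the lowest log2 fold change of the group (-0.55).

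Of 5 immune and cell death genes, Bcl2l11 and Sirpa rose in Mertk-/-V1 BMDMs, and Siglec1, Mavs and Dusp2 did not pass. Bcl2l11 encodes BIM, a BH3-only protein that triggers apoptosis. It held 781, 819 and 892 normalized counts in B6, 1143, 1155 and 1129 in Mertk-/-V1, 972, 942 and 936 in Mertk-/-V2, and 773, 803 and 860.5 in Mertk-/-V3. The Mertk-/-V1 libraries were the highest, those of Mertk-/-V2 came between, and Mertk-/-V3 overlapped with B6. The log2 fold change of Bcl2l11 was 0.46 ± 0.06 against B6 (1.38-fold, limma, adjusted p = 0.000402) and 0.38 ± 0.05 against the other knockouts (limma, adjusted p = 0.000901).

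Sirpa held 51890.3, 52848 and 53643 normalized counts in B6 BMDMs, 63117, 62899 and 63089.8 in Mertk-/-V1, 55366, 55905 and 53396 in Mertk-/-V2, and 55241, 55970.3 and 55006 in Mertk-/-V3. The Mertk-/-V1 libraries lay close together above all others. It rose by 0.26 ± 0.05 on the log2 scale against B6 (1.19-fold, limma, adjusted p = 0.00763) and by 0.19 ± 0.04 against the other knockouts (limma, adjusted p = 0.0411). The first call was lost without B6 replicate 1 and the second without any 1 library of Mertk-/-V1 or Mertk-/-V3. Siglec1, the sialic acid receptor of resident and interferon-exposed macrophages, held 7710.4 to 11111 normalized counts in B6 and 9689 to 10809 in Mertk-/-V1, which overlapped (0.13, limma, adjusted p = 0.592). The summed counts of 8 interferon response genes were 687 to 1267 in B6, 1689 to 1831 in Mertk-/-V1, 812 to 2684 in Mertk-/-V2 and 1352 to 2612 in Mertk-/-V3 BMDMs; their part in these values was not tested. Mavs, the adaptor of viral RNA sensing on mitochondria, was at -0.15.

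Of 7 transporters and membrane traffic genes tested, 3 rose in Mertk-/-V1 BMDMs. Tmem230, a protein of secretory and recycling vesicles, held 603, 556 and 571 normalized counts in B6, 841, 785 and 849 in Mertk-/-V1, 542, 546 and 534 in Mertk-/-V2, and 542, 559.7 and 569.6 in Mertk-/-V3. Its Mertk-/-V1 libraries stood apart from the 9 others, which spanned 534 to 603. The log2 fold change was 0.52 ± 0.06 against B6 (1.43-fold, limma, adjusted p = 0.000143) and 0.59 ± 0.05 against the other knockouts (1.50-fold, limma, adjusted p = 7.87e-06).

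Slc20a1, a sodium-phosphate cotransporter, and Slc23a2, a vitamin C transporter, were higher in Mertk-/-V1 and also high in Mertk-/-V2. Slc20a1 held 2127 to 2257 normalized counts in B6, 2426 to 2578 in Mertk-/-V1, 2474 to 2514 in Mertk-/-V2 and 1946 to 2032 in Mertk-/-V3. It rose against B6 in Mertk-/-V1 (0.19 ± 0.04, limma, adjusted p = 0.0141) and by as much in Mertk-/-V2 (0.19 ± 0.04, limma, adjusted p = 0.0222). It differed from the mean of both other knockouts (0.17 ± 0.03, limma, adjusted p = 0.0337), overlapping with Mertk-/-V2 and lying above Mertk-/-V3. Slc23a2 held 2776 to 2947 in B6, 3185 to 3721 in Mertk-/-V1, 3121 to 3440.2 in Mertk-/-V2 and 3056 to 3283 in Mertk-/-V3. All 3 knockouts lay above B6 and overlapped with one another. It passed in Mertk-/-V1 against B6 (0.30 ± 0.06, limma, adjusted p = 0.00974) and not against the other knockouts (0.12, limma, adjusted p = 0.367). Leaving out B6 replicate 1 or 2 ended the calls of both genes against B6, as leaving out Mertk-/-V1 replicate 1 did for Slc20a1. The call of Slc20a1 against the other knockouts was lost without Mertk-/-V2 replicate 2 or any 1 library of Mertk-/-V1 or Mertk-/-V3. Tmem127, Tmem87b, the tethering complex gene Vps16 and the ubiquitin ligase gene Rnf24 did not pass.

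All 8 cell cycle and replication genes were below 0 in Mertk-/-V1 BMDMs, from -0.29 to -0.03 on the log2 scale, and 2 of them passed, Bub1 and Pcna. In Mertk-/-V2 and Mertk-/-V3, which share the B6 libraries, 7 of the 8 were below 0 in each. Bub1, a kinase of the mitotic spindle checkpoint, held 1419, 1481 and 1457 normalized counts in B6, 1237, 1128 and 1191 in Mertk-/-V1, 1179, 1114 and 1413 in Mertk-/-V2, and 1080.3, 1199 and 1148 in Mertk-/-V3. The B6 libraries were the highest and the 3 knockouts overlapped with one another. Bub1 fell in Mertk-/-V1 (-0.29 ± 0.07, limma, adjusted p = 0.0326) and in Mertk-/-V3 (-0.35 ± 0.07, limma, adjusted p = 0.0420), with a difference of -0.00 between Mertk-/-V1 and the other knockouts; the Mertk-/-V1 call was lost in each of 6 fits that left out 1 B6 or Mertk-/-V1 library. The summed counts of 8 markers of cycling cells moved the same way, with 35656 to 39133 in B6, 30686 to 34019 in Mertk-/-V1, 30512 to 36655 in Mertk-/-V2 and 31086 to 31623 in Mertk-/-V3, and their part in the values of Bub1 and Pcna was not tested. The condensin gene Ncaph, the anaphase-promoting complex gene Anapc1, the spindle gene Ckap2l, the centromere gene Cenpb, the phosphatase gene Cdc25b and the helicase gene Mcm8 did not pass.

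Pcna has a near-identical processed copy, Pcna-ps2, on chromosome 19 (GRCm38, chr19:9283380-9284160), so that some reads may not tell the gene and its copy apart, which was not tested on reads. Over 781 aligned bases, counted from base 2 of the coding sequence of Pcna, they were 99.23% identical and differed at 6 positions (A144G, A177C, G424A, A586G, G618T and G699A, given as the base of Pcna, its position from 1 at the start codon, and the base of Pcna-ps2). Of 632 windows of 150 bases, the length of 1 read, 109 (17.2%) held no difference. Reads were paired, and a pair can cover more bases than 1 window, so this share is not that of read pairs. The stretch below covers bases 550 to 699 of the coding sequence of Pcna (GENCODE transcripts; gene at chr2:132249162-132253314, minus strand) and bases 549 to 698 of Pcna-ps2 (chr19:9283928-9284077, plus strand), shown because it holds 3 of the differing bases, which are in capitals.
Pcna: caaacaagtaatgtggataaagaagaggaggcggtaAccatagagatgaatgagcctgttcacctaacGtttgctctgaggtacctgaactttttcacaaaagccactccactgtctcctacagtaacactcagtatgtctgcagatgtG
Pcna-ps2: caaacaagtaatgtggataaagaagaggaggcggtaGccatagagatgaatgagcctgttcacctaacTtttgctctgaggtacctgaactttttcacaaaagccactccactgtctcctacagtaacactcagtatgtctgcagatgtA

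The gene and its copy differed in opposite directions in Mertk-/-V1. In BMDMs Pcna held 9156, 9034 and 9213 normalized counts in B6, 6931, 7595 and 8096 in Mertk-/-V1, 8143, 8197 and 7920.3 in Mertk-/-V2, and 8516, 8924 and 9075 in Mertk-/-V3, and it fell by 0.28 ± 0.05 on the log2 scale in Mertk-/-V1 against B6 (limma, adjusted p = 0.00649). Pcna-ps2 held 336, 319.5 and 229 in B6, 1528, 1673 and 1711 in Mertk-/-V1, 290.5 to 328 in Mertk-/-V2 and 251 to 370.3 in Mertk-/-V3 (2.49 ± 0.14 against B6, limma, adjusted p = 3.71e-07). The mean of Pcna was lower by 1593 normalized counts and that of Pcna-ps2 higher by 1342. Added together, the 2 held 9353 to 9493 in B6 and 8459 to 9807 in Mertk-/-V1, which overlapped, and the sum did not pass (-0.04 ± 0.05, limma, adjusted p = 0.665). The sum was tried after the data had been seen. Over 14 alternatives the adjusted p of Pcna ranged from 3.31e-05 to 0.665, and only the sum ended its call. In RPE the same opposite signs stood between Pcna (675 to 953 in Mertk-/-V1 against 983 to 1317 in B6, -0.52, limma, adjusted p = 0.0868) and Pcna-ps2 (225 to 299.5 against 12.6 to 48.1, 3.23 ± 0.30, limma, adjusted p = 3.25e-05), and the sum was at -0.17 ± 0.12 (limma, adjusted p = 0.836).

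**Figure D3:**
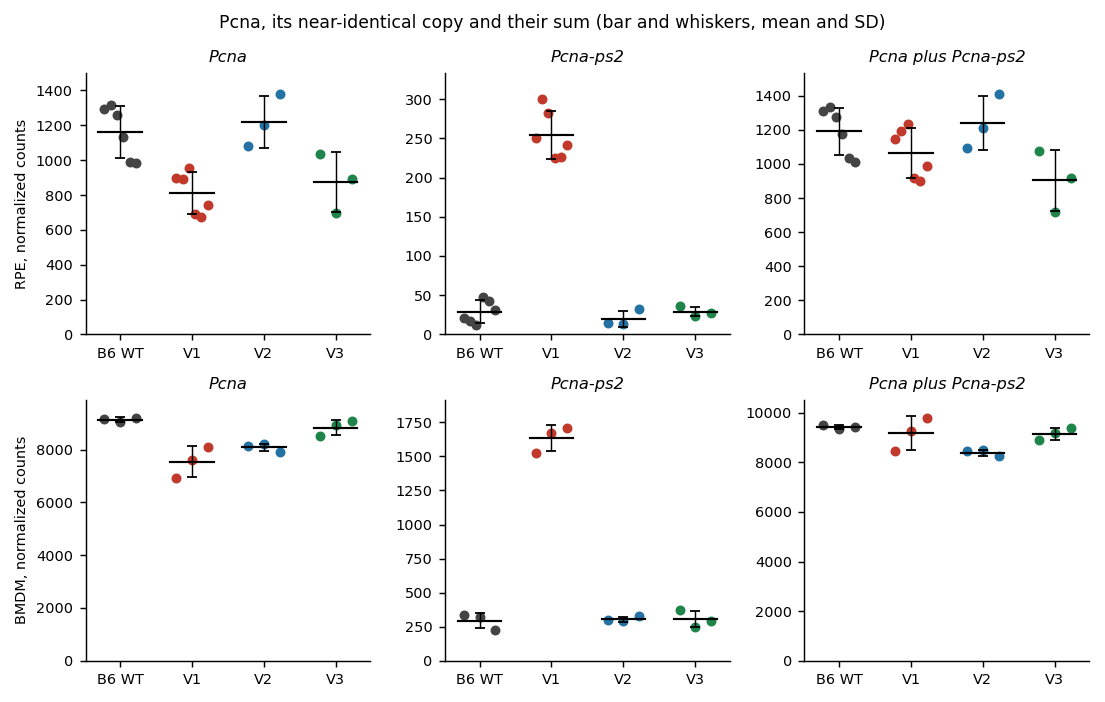
Normalized counts (vertical axes) of Pcna, of its processed copy Pcna-ps2 and of their sum, by genotype in RPE and BMDMs, 1 point per library with the mean and SD. The Mertk-/-V1 libraries stand below B6 for Pcna and above all others for Pcna-ps2, and overlap with B6 for the sum.

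Of 14 mitochondrial and metabolic genes, Smox alone passed in Mertk-/-V1 BMDMs. Smox encodes spermine oxidase, which breaks down the polyamine spermine. It held 1119, 1225 and 1208 normalized counts in B6, 952, 819.8 and 845 in Mertk-/-V1, 1228, 1120.5 and 1149 in Mertk-/-V2, and 1135, 1147 and 1151 in Mertk-/-V3. Its Mertk-/-V1 libraries were the lowest, and the 3 other genotypes overlapped. Smox fell by 0.44 ± 0.06 on the log2 scale against B6 (1.36-fold, limma, adjusted p = 0.000961) and by 0.41 ± 0.05 against the other knockouts (limma, adjusted p = 0.000894). The biliverdin reductase gene Blvra, the iron-sulphur assembly gene Ciao1, the lipid carrier gene Stard7, the mitochondrial ribosome genes Mrps5 and Mrps26, Chchd5, the citrate cycle gene Idh3b, the nucleotide-cleaning gene Itpa, the coenzyme A gene Pank2, the lipid enzymes Cds2, Gpcpd1 and Crls1, and Fastkd5 were between -0.41 (Fastkd5) and 0.13 (Chchd5) and did not pass.

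Of 8 genes listed under RNA processing and transcription, with which the ubiquitin ligase gene Ubox5 was grouped, Snrpb, a core spliceosome protein, passed. It held 5069.8, 4683 and 4545 normalized counts in B6, 4259.5, 4073 and 4150.5 in Mertk-/-V1, 4071, 4484 and 4467 in Mertk-/-V2, and 4497, 4264 and 4372 in Mertk-/-V3. All knockout libraries lay below the lowest B6 library, and Mertk-/-V1 overlapped with Mertk-/-V2. Snrpb fell by 0.19 ± 0.05 on the log2 scale against B6 (limma, adjusted p = 0.0342), while the difference from the other knockouts was -0.07 (limma, adjusted p = 0.578), and the call was lost without B6 replicate 1 or 2 or any 1 Mertk-/-V1 library. The helicase gene Snrnp200, the zinc finger genes Zc3h8 and Zc3h6, the RNA polymerase I gene Polr1b, the ribosomal RNA modification gene Nop56, the ubiquitin ligase gene Ubox5 and the tRNA methyltransferase gene Trmt6 did not pass.

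Bcl2l11, Prnp, Smox and Tmem230 kept their calls in both comparisons of Mertk-/-V1 BMDMs under all alternatives run. Tmem230, Nop56, Itpa and Mrps5 also have near-identical processed copies elsewhere, each of which held a mean of 40.7 normalized counts or fewer in every group.

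In RPE, 3 of the 58 genes tested passed in Mertk-/-V1 against B6, Tgm3 (higher) and Polr1b and Rassf2 (lower). Across all 18832 genes tested in RPE, 0.388% passed (0.287% higher and 0.101% lower). Only Tgm3 reached the 2.38-fold threshold, as did 0.149% of all genes. Against the mean of the other knockouts, Tgm3 alone passed, beside 0.207% of all genes (0.0956% with at least a 2.38-fold difference). That count of 1 was 14 with the replicate block, 11 with the set of replicates as a term and 21 with array weights. Among all genes the counts were then 2329, 1828 and 5444 in place of 39. Mertk-/-V2 and Mertk-/-V3 have only replicate numbers 1 to 3. The array weights put Mertk-/-V3 almost wholly on replicate 2 (weight 41.6, against 0.276 and 0.458 for replicates 1 and 3). None of the 12 genes that passed in BMDMs passed in RPE. The count of 3 against B6 was 1 without any 1 of the 6 B6 libraries (54 to 60 among all genes). It was also 1 without Mertk-/-V1 replicate 5 (72 among all genes in place of 73). Within replicates 1 to 3 and within replicates 4 to 6 it was 0, and 23 and 1 of all genes then passed.

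**Figure D4:**
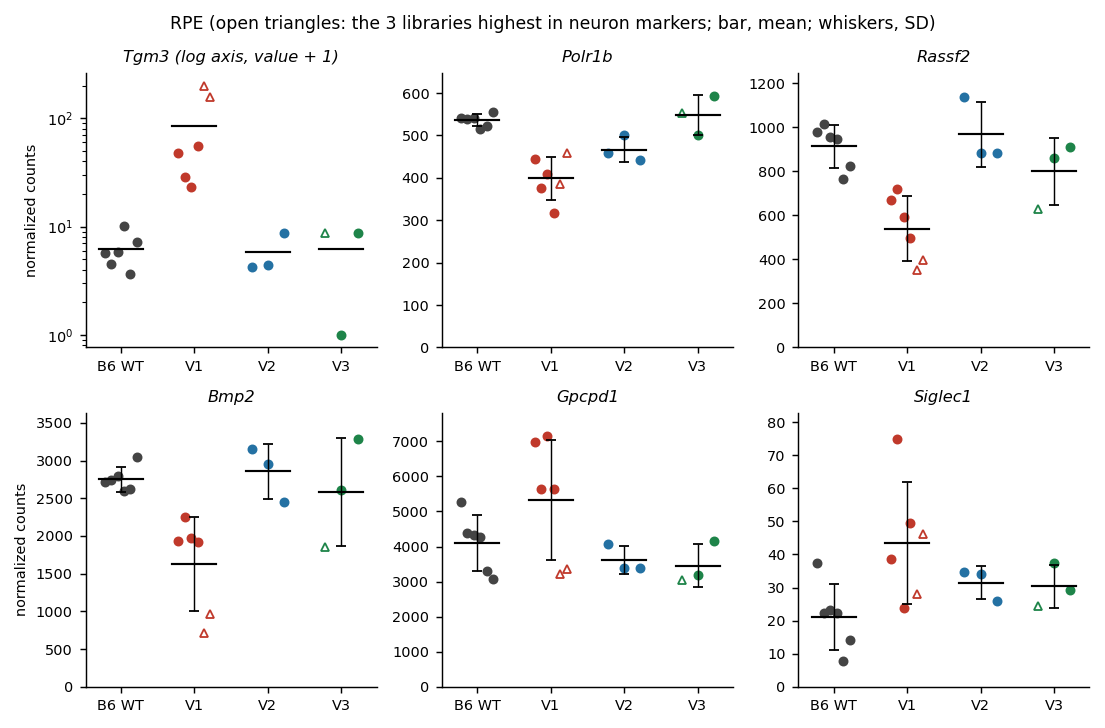
Normalized counts (vertical axes; Tgm3 on a log axis as the value plus 1) of Tgm3, Polr1b, Rassf2, Bmp2, Gpcpd1 and Siglec1 in RPE, 1 point per library (6, 6, 3 and 3), with the mean and SD; open triangles mark the 3 libraries highest in neuronal markers. All 6 Mertk-/-V1 libraries lie above all others for Tgm3 (22.1 to 199) and below all B6 libraries for Polr1b and Rassf2.

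Tgm3 encodes a transglutaminase that crosslinks proteins in skin and hair. In B6 RPE it was barely detected, at 2.62 to 9.25 normalized counts with a median of 4.76, whereas Mertk-/-V1 held 22.1 to 199 with a median of 50.4. The Mertk-/-V2 libraries held 3.22, 3.39 and 7.74 and those of Mertk-/-V3 7.81, 0 and 7.71. All 6 Mertk-/-V1 libraries stood above the 12 others. Group means of Tgm3 were 5.20 (B6), 4.79 (Mertk-/-V2) and 5.17 (Mertk-/-V3), each under the mean of 10 required for testing. The gene thus entered the RPE test only through its high values with Mertk-/-V1 (mean 84.5). The log2 fold change was 3.40 ± 0.60 against B6 (limma, adjusted p = 0.0126) and 3.68 ± 0.60 against the other knockouts (limma, adjusted p = 0.0108). Both calls remained in each of 12 fits that left out 1 library. The highest values were in Mertk-/-V1 replicates 5 and 6 (199 and 157), 2 of the 3 libraries highest in neuronal markers, and the other 4 held 22.1 to 54.3. With those 3 libraries set aside, a choice made once the data were known, the log2 fold change was 2.63 (limma, adjusted p = 0.0414, within a range of 1.41e-07 to 0.449 over 25 alternatives). In BMDMs Tgm3 had 0 reads in all B6 and Mertk-/-V1 libraries.

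Polr1b encodes a large subunit of RNA polymerase I. It held 516 to 554 normalized counts in B6 RPE (median 539.7), 317 to 459 in Mertk-/-V1 (median 397), 458, 499.9 and 441 in Mertk-/-V2, and 553, 500.0 and 594 in Mertk-/-V3. Mertk-/-V1 and Mertk-/-V2 overlapped with each other below B6, and Mertk-/-V3 overlapped with B6. The log2 fold change was -0.44 ± 0.08 in Mertk-/-V1 against B6 (limma, adjusted p = 0.0275) and -0.35 against the other knockouts (limma, adjusted p = 0.161). Rassf2, a RAS effector that acts as a tumour suppressor, held 764 to 1013 normalized counts in B6 RPE (median 951), 351 to 721 in Mertk-/-V1 (median 544), 1135, 883 and 883 in Mertk-/-V2, and 628, 859 and 910.0 in Mertk-/-V3. Mertk-/-V1 lay below B6 and Mertk-/-V2 and overlapped with 1 Mertk-/-V3 library. The log2 fold change was -0.80 ± 0.16 (limma, adjusted p = 0.0410) against B6 and -0.74 (limma, adjusted p = 0.103) against the other knockouts. The calls of both genes were lost without any 1 B6 library, that of Polr1b also without Mertk-/-V1 replicate 2 or 5, and that of Rassf2 without Mertk-/-V1 replicate 4, 5 or 6.

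The same replicate numbers of B6 and Mertk-/-V1 RPE deviated together, as did some pairs with different numbers. With the number as a block in a fit of these 2 groups, the genes that passed were Tgm3, Rassf2 and Pcna (limma, adjusted p = 0.0273, 0.0167 and 0.0167), of 101 among all genes. Polr1b no longer passed there (limma, adjusted p = 0.0751). Over the 25 alternatives the adjusted p of Polr1b ran from 0.000106 to 0.557 and that of Rassf2 from 0.000932 to 0.557. With the block and all 4 genotypes, 131 of all genes passed in place of 73.

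Other cells' RNA moved with several of the genes in RPE. Chgb, Plcb1 and Prnp were highest in the libraries with the highest neuronal sums, and Mal was highest in Mertk-/-V1 replicate 1, the library with the highest sum of surface epithelium markers. Chgb held 133 to 2390.3 normalized counts in B6 (median 670.1), 382 to 7084 in Mertk-/-V1 (median 762), 719 to 1134 in Mertk-/-V2 and 204 to 5522 in Mertk-/-V3. Plcb1 held 58.8 to 270.0 in B6 (median 113), 78.2 to 855 in Mertk-/-V1 (median 128), 129 to 169 in Mertk-/-V2 and 87.9 to 385 in Mertk-/-V3. The top values of both were in Mertk-/-V1 replicate 5, with 855 for Plcb1, and the rest of the Mertk-/-V1 libraries reached 372 for Plcb1. Mal ran from 9828 to 42895 in B6 and from 9941 to 57722 in Mertk-/-V1, and the mitotic genes Bub1 and Ckap2l spread as widely, at 18.8 to 249.9 and 121 to 897 in B6, where the sum of the cycling markers ran from 1251 to 9743. None of these genes passed against B6, and the part of the other cells in their values was not tested.

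**Figure D5:**
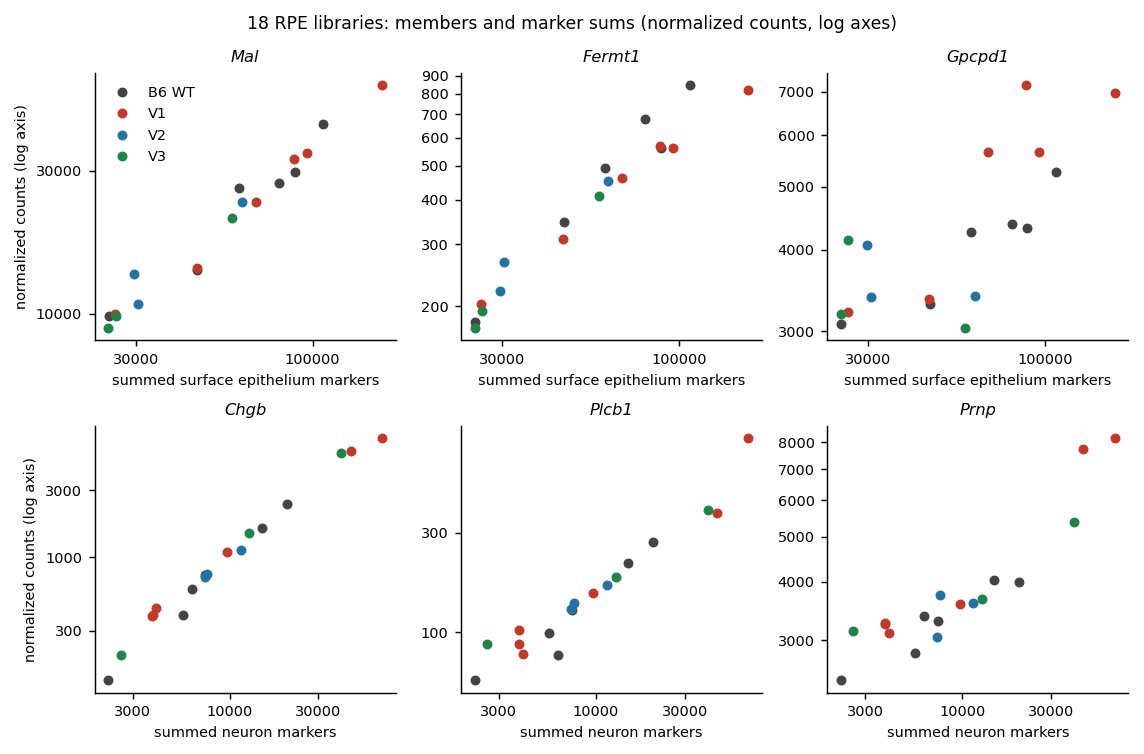
Normalized counts of Mal, Fermt1 and Gpcpd1 against the summed surface epithelium markers, and of Chgb, Plcb1 and Prnp against the summed neuronal markers, in the 18 RPE libraries (both axes logarithmic, 1 point per library, coloured by genotype). The neuronal sums run from 2225 to 66108 and the highest values of Chgb and Plcb1 lie at their upper end.

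With the 3 libraries highest in neuronal markers set aside, 4 genes passed in Mertk-/-V1 RPE against B6 in place of 3. Bmp2 was the gene gained, at -0.45 ± 0.09 (limma, adjusted p = 0.0342, within a range of 0.0283 to 0.557 over 25 alternatives). It held 2598 to 3047 normalized counts in B6 (median 2726), 712 to 2258 in Mertk-/-V1 (median 1929), 3157, 2957 and 2454 in Mertk-/-V2, and 1857, 2614 and 3288 in Mertk-/-V3, with no overlap between Mertk-/-V1 and B6. Over all libraries its log2 fold change was larger, at -0.87, and did not pass (limma, adjusted p = 0.215). In the fit without the 3 libraries, the count among all genes against B6 also rose above 73. Whether the listed genes gained more than all genes was not tested. Gpcpd1, an enzyme of choline lipid breakdown, held 3079.9 to 5264 in B6 and 3206 to 7163 in Mertk-/-V1, where replicates 5 and 6 were the lowest 2 (0.33, limma, adjusted p = 0.797). Against the other knockouts, setting the 3 libraries aside moved the count from 1 to 9, of 701 among all genes in place of 39; the 9 were Tgm3, Rassf2, Gpcpd1, Bmp2, Mal, Polr1b, Chchd5, Rnf24 and Cds2. Leaving out only Mertk-/-V3 replicate 1 made it 3, of 186 among all genes. With the rod and surface epithelium sums as covariates, also added later, 6 genes passed against B6 (Tgm3, Rassf2, Pcna, Gpcpd1, Bmp2 and Polr1b), of 252 among all genes.

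Siglec1, at 7.86 to 37.3 normalized counts in B6 RPE and 23.7 to 74.9 in Mertk-/-V1, had the highest log2 fold change among the genes that did not pass in RPE (1.04, limma, adjusted p = 0.340); the groups overlapped. The sum of 8 interferon response genes was 3153 to 4633 in B6, 5325 to 11448 in Mertk-/-V1, 6759 to 8537 in Mertk-/-V2 and 4015 to 4375 in Mertk-/-V3, and its part in the values of Siglec1 was not tested. Of the 55 genes that did not pass, 43 had a log2 fold change between -0.25 and 0.25.

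Tgm3 in RPE and Plcb1 in BMDMs were the only genes of the 59 past both thresholds. The study had named both among its differentially expressed genes of chromosome 2, and the listed stretch ends at Plcb1. Their presence on the list is thus not independent of these data. The 250 bases before their RefSeq start sites (GRCm38.p6) are shown to set their promoters side by side. Promoters were found for 52 of the 59 genes. Capitals mark the motifs TATAAA (the TATA box), CCAAT and GGGCGG (the GC box), searched on both strands. The Tgm3 promoter (chr2:130012090-130012339, plus strand) held 1 TATAAA and 2 CCAAT and no GGGCGG, and that of Plcb1 (chr2:134785914-134786163, plus strand) held 1 GGGCGG and neither of the others. Among 32851 promoters of the same length, 12.4% held TATAAA, 33.8% held CCAAT and 32.7% held GGGCGG. A match is a description of the reference sequence and not of the alleles in these mice.
Tgm3: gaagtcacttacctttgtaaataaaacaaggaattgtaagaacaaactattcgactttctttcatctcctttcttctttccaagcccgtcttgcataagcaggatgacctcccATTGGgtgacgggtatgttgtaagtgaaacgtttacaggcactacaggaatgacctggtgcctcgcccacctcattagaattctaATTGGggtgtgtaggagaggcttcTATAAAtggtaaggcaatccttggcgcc
Plcb1: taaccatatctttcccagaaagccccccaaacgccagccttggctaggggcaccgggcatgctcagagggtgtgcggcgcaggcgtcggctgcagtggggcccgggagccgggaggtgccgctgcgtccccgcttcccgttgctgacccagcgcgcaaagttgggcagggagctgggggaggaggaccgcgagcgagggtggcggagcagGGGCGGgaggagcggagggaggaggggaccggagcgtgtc

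In the lines made on B6 embryos, the counts against B6 in RPE depended on the fit. In Mertk-/-V2 BMDMs, 2 of 53 passed against B6, beside 4.61% of all genes, namely Slc20a1, as above, and Fastkd5, a mitochondrial RNA-processing factor. Fastkd5 held 104, 89.7 and 122 normalized counts in B6, 82.2, 85.0 and 68.6 in Mertk-/-V1, 75.2, 67.6 and 64.6 in Mertk-/-V2, and 92.8, 73.6 and 78.7 in Mertk-/-V3 (-0.59 ± 0.16 in Mertk-/-V2, limma, adjusted p = 0.0499). It shares 1974 bases at 99.95% identity with the overlapping gene Ubox5, which held 196 to 214 in B6 and 238 to 271 in Mertk-/-V2, so its value is uncertain, and it passed in 2 of 13 alternatives, in none of those that left out 1 library of either group. The Slc20a1 call in Mertk-/-V2 was lost without B6 replicate 1 or 2. In Mertk-/-V3 BMDMs Bub1 alone passed, beside 1.17% of all genes, and not without any 1 library of B6 or Mertk-/-V3. In RPE, 0 of 58 genes passed in limma in Mertk-/-V2 (0.069% of all genes) and in Mertk-/-V3 (0.069%), with 1 and 7 at an unadjusted p under 0.05, and edgeR and DESeq2 called 0 in each. With the replicate block they were 3 in Mertk-/-V2 (706 among all genes) and 17 in Mertk-/-V3 (5619 among all genes in place of 13). In Mertk-/-V3 RPE they were also 17 with the set of replicates as a term (4749 among all genes) and 34 with array weights (12592). The array weight of Mertk-/-V3 replicate 2 was 41.6, against 0.276 and 0.458 for replicates 1 and 3. Mertk-/-V1 had 4 in each of these fits. Among all 18832 genes, Mertk-/-V1 then had far fewer calls than Mertk-/-V3, with 131 for the block, 139 for the set and 151 for array weights. These counts share the B6 libraries, and whether they differ from those of Mertk-/-V1 was not tested.

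The difference between tissues was tested as the effect of Mertk-/-V1 against B6 in RPE minus that in BMDMs. Of the 52 genes tested in both, 0 passed in limma, beside 0.376% of 12513 genes, with 9 at an unadjusted p under 0.05, edgeR called 1, Bcl2l11, and limma with array weights called 12, of 939 among all genes. Bcl2l11 held 413 to 576 normalized counts in B6 RPE and 378 to 507 in Mertk-/-V1 RPE, and its difference of effects was -0.59 (limma, adjusted p = 0.0751). Plcb1 had the lowest difference (-1.31, limma, adjusted p = 0.728). The 12 were Bcl2l11, Slc20a1, Sirpa, Ptpra, Slc23a2, Tmem230, Plcb1, Rassf2, Ubox5, Gpcpd1, Rnf24 and Cds2. Whether a gene that passed in 1 tissue is shown to differ from the other tissue thus depended on the fit. Tgm3 could not enter this test, being under the minimum in BMDMs.

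By position, 2 of the 12 genes tested before Mertk and 10 of the 41 tested after it passed in Mertk-/-V1 BMDMs, beside 7.07% of all genes. From Smox to Pcna (chr2:131491496-132253314, 761.8 kb), 5 of 6 adjacent genes on the list passed in BMDMs (Smox, Prnp, Slc23a2, Tmem230 and Pcna), 3 higher and 2 lower, and the remaining 1, Rassf2, passed in RPE. The call of Pcna was lost when Pcna-ps2 was added to it, and that of Slc23a2 without B6 replicate 1 or 2. This run was picked after its values had been seen. Of 145 other annotated genes between Blvra and Plcb1, 33 could be tested in BMDMs and 3 passed in Mertk-/-V1 against B6 (9.09%), while 45 could be tested in RPE and 0 passed in limma.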

How the data were processed

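The authors isolated RNA from RPE pellets and BMDMs with a column kit, sequenced it as 150-base paired-end reads, trimmed adaptors and poor bases (btrim), aligned to GRCm38 (STAR) and used DESeq2; the counter, the annotation and the strand setting are not given in the sources used here. The deposited signal values are gene counts that the authors divided by 1 DESeq2 size factor per library. GRCm38 is a C57BL/6J assembly, so where Mertk-/-V1 keeps 129P2 sequence, a change in mapping and a change in transcript level cannot be told apart. Dividing by the value of 1 read gave whole reads for 100% of values (tolerance 0.001), and 0 columns belonged to no sample. Counts of 0 and depths cover counting error only.

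Positions came from GENCODE M21 (55394 of 55573 genes matched) and promoters from RefSeq. limma 3.58.1 in R 4.3.3 (lmFit, eBayes with trend) was fitted on log2(value + 1), with the 4 genotypes of a tissue in 1 model, for genes whose mean was 10 or more and with Benjamini-Hochberg adjustment over all of them. A gene passed at an adjusted p under 0.05, and the larger threshold was a 2.38-fold difference in either direction. The tissue difference was 1 limma model over 30 libraries. Genes that passed in a Mertk-/-V1 comparison are given with values in every group, those that passed in Mertk-/-V2 or Mertk-/-V3 with that comparison, and others by ranges; non-members are Mertk, sequence copies and marker sums. The members, gene lists and tests were chosen with earlier results of these data known. Alternatives were a pseudocount of 5, no filter, only the groups compared, array weights, edgeR 4.0.16 and DESeq2 1.42.0 on whole reads, a replicate block, sets of RPE replicates and each library left out; the alternatives with 3 libraries set aside, marker covariates, the summed Pcna and the block within 2 groups were chosen after seeing the data. The same numbers of B6 and Mertk-/-V1 RPE deviated together in all 6 pairs (correlation 0.119 to 0.724). Some different numbers did so as strongly, such as B6 replicate 5 with Mertk-/-V1 replicate 6 (0.744). Over the 4 genotypes, 96 different-number RPE pairs ran from -0.711 to 0.744 (median -0.003). The number is the only link the labels give, and they do not say what it marks. No 2 libraries of a group were copies (lowest chi-square per degree of freedom 3.42). BLAST 2.17.0 found copies of at least 97% identity over 300 bases. The pipeline was tested on simulated data.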

Additional observations from a re-analysis of the deposited data

Results flagged for a closer look

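In 2 of 118 groups of 6 RPE libraries, 1 library lay far from the other 5 by Dixon's criterion, which chance meets in about 1 of 20 groups. Blvra, a heme-degradation enzyme, was lowest in B6 RPE replicate 1 (136 normalized counts, with the next library at 173). Nop56 was lowest in B6 RPE replicate 4 (921 normalized counts, with the next at 1044). Neither gene passed in RPE in the limma fit of all 4 genotypes without alternatives. Over the alternatives, Blvra passed in 1 of 19 in Mertk-/-V3 RPE against B6.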

How the results depend on the processing

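Among the alternative values of genes that passed with Mertk-/-V1, 290 stayed past the threshold in the same direction, 76 kept the direction without passing and 0 reversed. The counts of genes past it moved more, and where not stated the cause was not tested. With a library left out (fewer samples), the 12 in Mertk-/-V1 BMDMs against B6 became 5 to 11 (243 to 1200 among all genes). The 7 against the other knockouts then became 4 to 9 (74 to 266 among all genes). The 12 became 17 with array weights and 10 with the block. In Mertk-/-V2 BMDMs the 2 became 4 in DESeq2 (836 among all genes in place of 618) and 6 with array weights (1182). It was 1 in edgeR (607) and with the replicate block (305), and 0 without a filter (353) and with only the groups compared (69). With a library left out it was 0 to 4 (148 to 1168). In Mertk-/-V3 BMDMs the 1 became 13 with array weights (1693 among all genes in place of 157). It was 3 with only the groups compared (558), and 0 without a filter (107) and with the block (77). With a library left out it was 0 to 1 (33 to 249). In Mertk-/-V1 RPE the 3 against B6 became 1 without a filter (69 among all genes in place of 73). It was also 1 with only the groups compared (56), and 0 within replicates 1 to 3 (23) or 4 to 6 (1). With marker covariates it was 6 (252), and with a library left out 1 to 3 (54 to 89). The 1 against the other knockouts became 4 in DESeq2 (149 among all genes in place of 39) and 21 with array weights (5444). It was 9 with 3 libraries set aside (701), 0 with only the groups compared (17), 14 with the block (2329) and 3 with covariates (44). With the replicate set as a term it was 11 (1828), and with a library left out 1 to 3 (23 to 186). In Mertk-/-V2 RPE the 0 became 3 with the block, and in Mertk-/-V3 RPE 34 with array weights, 17 with the block and 17 with the replicate set. Within Mertk-/-V3 RPE the array weights lay almost wholly on replicate 2 (41.6). The tissue difference gave 12 with array weights (939 among all genes in place of 47) and 1 in edgeR (58). With a library left out it gave 0 to 1 (15 to 62). Among all genes, array weights moved the count in Mertk-/-V1 BMDMs from 949 to 2766, the block to 565, and the absence of a filter to 606; in Mertk-/-V1 RPE against the other knockouts 39 became 5444 with array weights, 2329 with the block and 149 in DESeq2, and against B6 73 became 202 in DESeq2 and 151 with array weights. The labels do not say that equal numbers pair samples in either tissue, and the median correlation was -0.09 over 18 same-number pairs in BMDMs. The filter on a mean of 10 left 6 genes in BMDMs and 1 in RPE untested.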
